A study of Mus musculus with 20 samples.

Results

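Tight junction genes were followed in the mouse trachea: the claudins Cldn1, Cldn3, Cldn4, Cldn7, Cldn8, Cldn10, Cldn18 and Cldn23, occludin (Ocln) and the scaffold gene Tjp1, which encodes ZO-1. The members were all the non-control probes that carry 1 of these 10 gene names on the array, which gave 13 probes of 41174. Cldn1, Ocln and Tjp1 each had 2 probes. The arrays measured RNA of 20 whole tracheas of C57/Bl6 mice, in 4 groups of 5: uninjured wild-type (WT-control), uninjured Myd88KO (KO-control), injured wild-type (WT-injury) and injured Myd88KO (KO-injury). Myd88 encodes an adaptor of Toll-like and interleukin 1 receptor signalling. The Myd88KO mice lack it in every cell type and were bred as a colony apart from the wild-type mice, so that litter or colony and genotype cannot be told apart. Injury was 2% polidocanol, a detergent that strips the tracheal epithelium, given 3 days before the tracheas were taken. The labels give all mice an age of 4 months.

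Tight junctions seal the space between neighbouring epithelial cells near their apical surface. Claudins are four-pass membrane proteins that form the strands of the junction and set which ions and molecules pass between cells, some as barriers and others as pores. Occludin lies in the same strands, and ZO-1 links the strands to the actin cytoskeleton. In the airway this seal separates the surface liquid from the tissue beneath. Since the samples were whole tracheas, fewer cells of a type and less RNA per cell cannot be told apart in any value given here.

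A few facts of the arrays touch the results below. Signals are log2 intensities relative to the 75th percentile of the same array, so that 0 is the level of that percentile. Each of 5 slides held 1 array of every group, and the replicate number is the number of the slide. Slides 2, 3 and 4 were scanned on 1 day (scan day 1) and slides 1 and 5 on another (scan day 2). On WT-control replicate 3, markers of squamous epithelium summed to 9.54 on the log2 scale, against 3.36 to 4.21 on the other 4 arrays of that group. KO-injury replicate 5 stood apart in having a log2 summed signal of proliferation markers of 2.45, where the other injured Myd88KO arrays had 4.39 to 5.81. Myd88 itself differed by -0.21 (SE 0.14, limma adjusted p = 1.00) between the uninjured genotypes and by -0.77 (SE 0.14, limma adjusted p = 0.0082) between the injured ones, so its probe did not separate the uninjured genotypes. Whether that probe lies in the deleted part of the gene is not given in the sources used here.

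All 10 genes of an epithelial marker list passed the filter on dim probes, Epcam, Krt8 and Krt18 among them. So did 9 of 9 myeloid, 7 of 7 endothelial and 5 of 6 thyroid markers, so that passing does not single out epithelium. Summed thyroid markers were at 6.44 to 8.89 on the uninjured Myd88KO arrays, and summed epithelial markers at 7.85 to 8.38. Thyroid sums were also high in the other groups: 6.57 to 8.48 in WT-control, 6.96 to 8.65 in WT-injury and 6.59 to 7.77 in KO-injury. The part of thyroid tissue in the junction signals was not tested. Of the tight junction probes, 11 of 13 passed this filter, which asked that a probe be well above background on at least 10 of 20 arrays. These 11 probes represent 9 of the 10 genes. The probe of Cldn18, a claudin known from the alveolar and gastric epithelium, was well above background on 1 of 20 arrays, KO-control replicate 5, where its signal was -3.80. The summed alveolar cell markers on that array were at 5.87, against at most 5.85 on the other uninjured Myd88KO arrays. They were higher, at 6.47 and 6.09, on WT-control replicates 1 and 5. On those arrays the Cldn18 probe was not well above background (-4.80 and -5.61). The second Ocln probe was well above background on 0 of 20 arrays, while the first Ocln probe was well above background on all 20. Positions on the array are given without a stated genome build. The Cldn18 probe lies at chr9:99334052-99334112. The second Ocln probe lies on chromosome 13 from base 97627594 to base 97628787, a span of 1194 bases, and the first Ocln probe at chr13:97585859-97585918.

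Each tested gene is best read array by array, and the plot of all 20 arrays shows the 9 genes side by side.

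**Figure D1:**
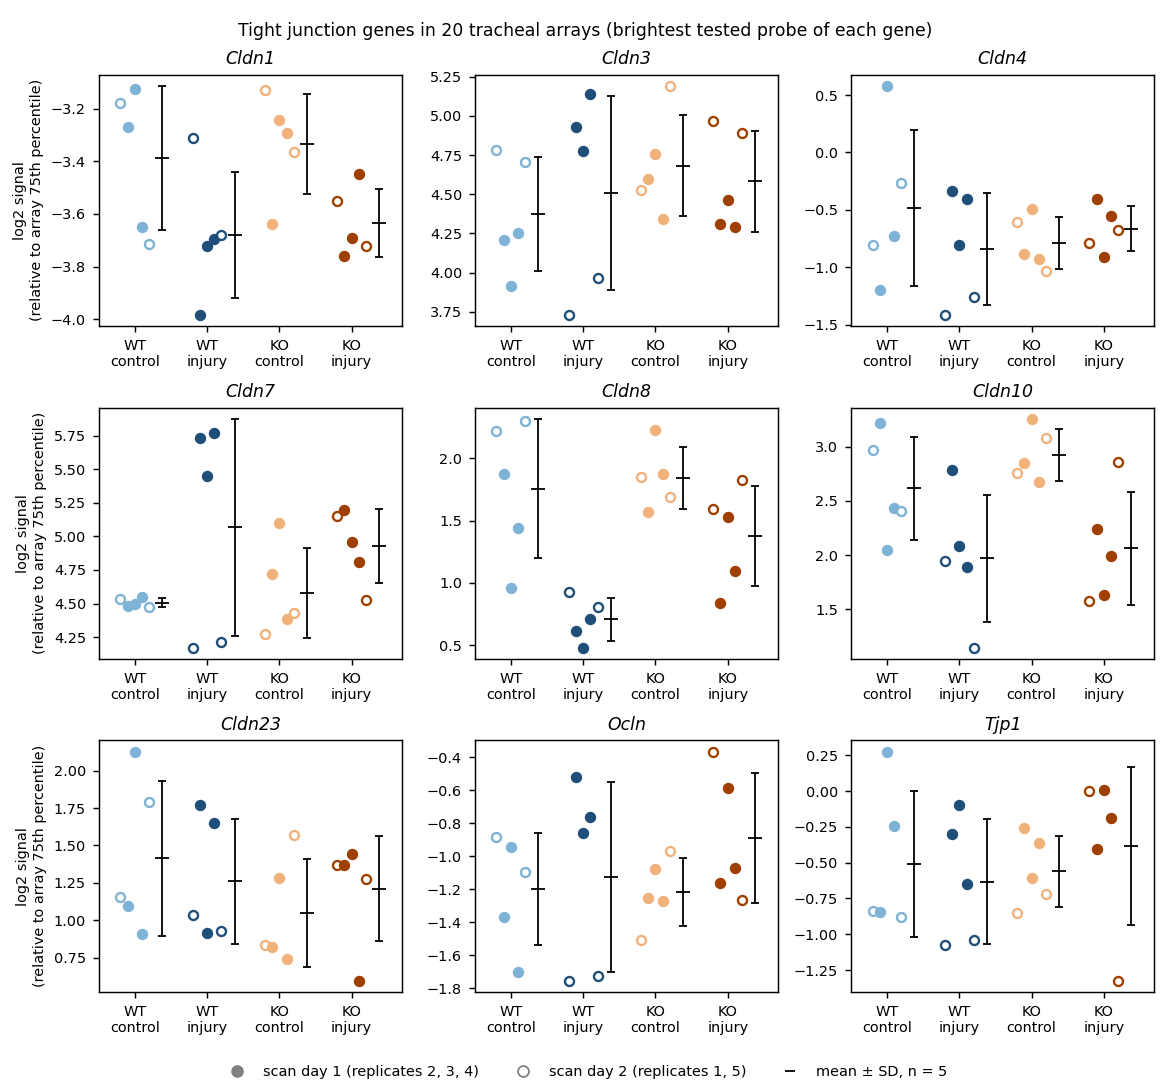
Log2 signal (vertical axis, relative to the 75th percentile of the array) of the brightest tested probe of 9 tight junction genes in the 4 groups (horizontal axis). Each point is 1 array, filled points were scanned on day 1 and open points on day 2, and the bars give the mean and SD of 5 arrays. The 5 injured wild-type arrays lie below every uninjured wild-type array for Cldn8 (0.48 to 0.93 against 0.96 to 2.29). Injured wild-type arrays of day 1 lie above those of day 2 for Cldn3, Cldn4, Cldn7, Ocln and Tjp1. For Cldn8 and, narrowly, Cldn1 they lie below those of day 2.

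The first question was whether injury changed these genes in wild-type tracheas. Of the 9 genes, Cldn8 fell, and the other 8 did not pass the test. Cldn8 is a claudin that tightens the paracellular barrier in several epithelia. Its signals in the uninjured wild-type tracheas were 2.21, 1.87, 0.96, 1.44 and 2.29 (replicates 1 to 5, mean 1.76 ± 0.56, SD, n = 5). In the injured wild-type tracheas they were 0.93, 0.61, 0.48, 0.71 and 0.81 (mean 0.71 ± 0.17, SD, n = 5). Every injured array lay below every uninjured one, and the lowest uninjured array was replicate 3, the array with the squamous markers.

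The Cldn8 difference was -1.04 (SE 0.23, 95% confidence interval -1.53 to -0.56, limma adjusted p = 0.0062), a 2.06-fold lower intensity, and its sign was the same on 5 of 5 slides. Of all 26063 probes tested, 5.26% were called in this comparison at an adjusted p under 0.01 (2.03% lower and 3.24% higher), and 4.68% had injured arrays all below uninjured ones. At an unadjusted p under 0.05 there were 2 of the 9 genes, Cldn8 and Cldn10, and 26.4% of all probes. The count of 1 lower gene in 9 is to be read against these shares. Without WT-control replicate 3 the difference was -1.24 (limma adjusted p = 0.0017). The call depended on single arrays: it was lost, with an adjusted p of 0.011 to 0.020, when any of the 5 injured arrays or WT-control replicate 1, 2 or 5 was left out, while the difference stayed between -1.24 and -0.91.

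Cldn10, a channel-forming claudin that is known as a marker of club cells, was lower after injury in both genotypes but passed the test in neither. In wild-type tracheas its signals were 2.97, 3.22, 2.04, 2.43 and 2.41 without injury and 1.94, 2.79, 2.08, 1.89 and 1.15 with injury. In Myd88KO tracheas they were 2.76, 2.85, 3.26, 2.68 and 3.08 without injury and 1.58, 2.25, 1.63, 1.99 and 2.86 with injury. In both genotypes the groups overlapped, through injured replicates 2 and 3 in wild-type and through injured replicate 5 in Myd88KO.

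The Cldn10 difference was -0.65 in wild-type (SE 0.29, limma adjusted p = 0.15) and -0.86 in Myd88KO (SE 0.29, limma adjusted p = 0.10), with the injured array lower on 4 of 5 slides and on 5 of 5 slides. Without KO-injury replicate 5 the Myd88KO difference was -1.06 (limma adjusted p = 0.019). Without WT-control replicate 3 the wild-type difference was -0.79 (limma adjusted p = 0.087). The summed signal of 8 club and secretory cell markers moved the same way: it was 10.9 to 11.5 in uninjured and 9.61 to 10.1 in injured wild-type arrays, and 10.8 to 11.4 against 9.60 to 10.8 in Myd88KO arrays. On KO-injury replicate 5 the club cell sum was 10.8, the highest of its group. The part of club cells in the Cldn10 values was not tested.

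Cldn3 and Cldn7, which form barrier strands in many simple epithelia, did not pass the test over 5 arrays a group, but their injured wild-type arrays fell into 2 levels. Cldn7 was at 4.53, 4.48, 4.50, 4.55 and 4.47 in uninjured wild-type tracheas (SD 0.033), and at 4.17, 5.73, 5.45, 5.77 and 4.21 in injured ones (SD 0.81). The injured replicates 2, 3 and 4, scanned on day 1, were above all uninjured arrays, and the injured replicates 1 and 5, scanned on day 2, were below all of them. Over all arrays the difference was 0.56 (95% confidence interval -0.02 to 1.14, limma adjusted p = 0.21).

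For Cldn3 the injured wild-type arrays of the 2 scan days also lay apart, but both sets overlapped the uninjured arrays. Its signals were 4.78, 4.21, 3.92, 4.26 and 4.71 in uninjured wild-type tracheas, and 3.73, 4.93, 4.77, 5.14 and 3.96 in injured ones. The difference over all arrays was 0.13 (95% confidence interval -0.41 to 0.68, limma adjusted p = 0.79), and injured replicates 1 and 5 were again the lowest of the injured group.

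Ocln was at -0.89, -1.37, -0.94, -1.70 and -1.10 in uninjured wild-type tracheas and at -1.75, -0.52, -0.86, -0.76 and -1.73 in injured ones. Its difference over all arrays was 0.07 (95% confidence interval -0.44 to 0.59, limma adjusted p = 0.88).

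The injured wild-type arrays of the 2 scan days lay apart in further genes. Cldn4 was at -0.33, -0.81 and -0.40 on replicates 2, 3 and 4 and at -1.41 and -1.26 on replicates 1 and 5. Tjp1 was at -0.30, -0.10 and -0.65 against -1.08 and -1.04. For Cldn8 and, narrowly, Cldn1 the arrays of day 2 were the higher ones. Compared within scan days, Cldn3, Cldn7 and Ocln were higher after injury in wild-type tracheas on day 1 and lower on day 2. The Cldn7 difference was 1.14 on day 1 and -0.31 on day 2. With the 12 arrays of day 1 alone Cldn7 was called higher (limma adjusted p = 0.0053, where 2% of all probes were called higher), and with the 8 arrays of day 2 it was not (limma adjusted p = 0.53). Cldn8 was lower on both days, with a difference of -0.82 on day 1 (limma adjusted p = 0.059) and of -1.38 on day 2 (limma adjusted p = 0.0058, where 1.51% of all probes were called lower). The Cldn3 difference was 0.82 on day 1 (limma adjusted p = 0.011) and -0.90 on day 2 (limma adjusted p = 0.078). The Ocln difference was 0.62 on day 1 (limma adjusted p = 0.080) and -0.75 on day 2 (limma adjusted p = 0.25). A test of the difference between the days themselves gave 1.72 for Cldn3 (SE 0.28, limma adjusted p = 0.087) and 1.45 for Cldn7 (SE 0.30, limma adjusted p = 0.11), and for Ocln 1.37 (SE 0.39, limma adjusted p = 0.22); 0 of 26063 probes passed it.

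Other epithelial signals differed between the same arrays. The summed signal of the 10 epithelial markers was 8.06 and 8.13 on injured wild-type replicates 1 and 5, and 9.15, 8.98 and 9.17 on replicates 2, 3 and 4. In all uninjured wild-type arrays it was 7.94 to 8.06. The summed ciliated cell markers were at 3.56 and 3.79 on injured replicates 1 and 5 and at 5.89, 5.75 and 6.39 on the other 3. Summed myeloid markers were at 6.74 and 8.33 on replicates 1 and 5 and at 6.05, 6.50 and 5.84 on replicates 2, 3 and 4. The part of these in the claudin values was not tested, and the scan day cannot be told apart from the slides and tracheas scanned on it.

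**Figure D2:**
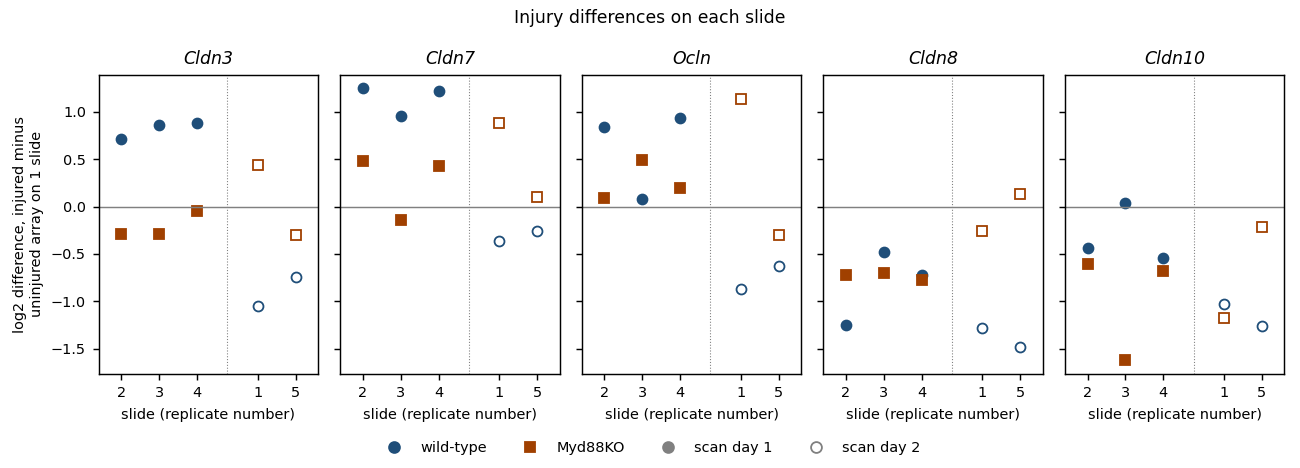
Log2 difference between the injured and the uninjured array of 1 genotype on the same slide (vertical axis) for Cldn3, Cldn7, Ocln, Cldn8 and Cldn10, by slide (horizontal axis). Circles are wild-type, squares Myd88KO, filled symbols scan day 1 and open symbols scan day 2. In wild-type, Cldn7 was higher on slides 2, 3 and 4 and lower on slides 1 and 5, whereas Cldn8 was lower on all 5 slides (-1.48 to -0.48).

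For Cldn3, Cldn7 and Ocln, and for Cldn4, whose gene lies close to that of Cldn3, the bases before the RefSeq transcription start were read to show what sequence they share. RefSeq windows of 250 bases were found for 8 of the 10 genes, not for Cldn8 and Cldn23, 12 windows in all, on build GRCm38.p6. Capitals mark 2 short motifs searched on both strands, the GC box GGGCGG and the E-box CACCTG that Snail and Zeb repressors bind. These motifs do not overlap each other in the windows printed. The windows of Cldn3 (chr5:134985964-134986213, plus strand), Cldn4 (chr5:134946935-134947184, minus strand) and Ocln (chr13:100552719-100552968, minus strand, the more upstream of 2 starts) read 5′ to 3′ as follows.
Cldn3: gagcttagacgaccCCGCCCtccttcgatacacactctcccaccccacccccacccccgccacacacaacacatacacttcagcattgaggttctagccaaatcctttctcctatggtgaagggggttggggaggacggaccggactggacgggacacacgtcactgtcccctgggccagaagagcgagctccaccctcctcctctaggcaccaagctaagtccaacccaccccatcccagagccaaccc
Cldn4: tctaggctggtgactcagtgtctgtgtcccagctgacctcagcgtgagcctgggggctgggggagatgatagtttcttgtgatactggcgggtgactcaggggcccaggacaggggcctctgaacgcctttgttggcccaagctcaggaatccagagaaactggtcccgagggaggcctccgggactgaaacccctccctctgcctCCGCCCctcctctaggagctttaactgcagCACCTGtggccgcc
Ocln: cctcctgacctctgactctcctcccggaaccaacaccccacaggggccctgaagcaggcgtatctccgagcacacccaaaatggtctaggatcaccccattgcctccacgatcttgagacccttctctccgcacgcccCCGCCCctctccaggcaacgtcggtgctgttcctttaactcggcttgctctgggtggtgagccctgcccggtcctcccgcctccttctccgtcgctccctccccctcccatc

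Each of these 3 windows holds 1 GC box. The Cldn4 window also holds 1 E-box, from 14 to 9 bases before the start. Cldn7 has 2 starts: the upstream window holds neither motif and the downstream window holds 1 GC box and 2 E-boxes. The downstream Ocln window, which overlaps the one printed, also holds 1 GC box and 2 E-boxes. A GC box stood in 8 of the 12 windows of the tight junction genes and in 32.7% of all 32851 promoter windows, and an E-box in 3 of 12 and in 17.2%. The windows with a GC box had a GC content of 55.6% (Cldn1) to 72.4% (Cldn10), where the median of all windows was 52.4%. The part of GC content in the GC box count was not tested. The grainyhead motif AACCNGTT, the Ovol motif CCGTTA and the TATA box TATAAA stood in 0 of the 12 windows, and in 1.79%, 2.18% and 12.4% of all windows. A match is a description of letters, and the arrays hold no measurement of factor binding.

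Cldn4, a barrier claudin, and Cldn23 did not pass the test after injury in wild-type tracheas, with differences of -0.36 (SE 0.27, limma adjusted p = 0.43) and -0.16 (SE 0.25, limma adjusted p = 0.74). Uninjured wild-type signals of Cldn4 were -0.81, -1.20, 0.58, -0.72 and -0.27, and those of Cldn23 were 1.16, 1.10, 2.12, 0.91 and 1.79. Replicate 3, with the squamous markers, was the highest array of all 20 for both genes, and the lowest of its group for Cldn3, Cldn8 and Cldn10. Without it the differences were -0.09 for Cldn4 (limma adjusted p = 0.83) and 0.02 for Cldn23 (limma adjusted p = 0.97).

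**Figure D3:**
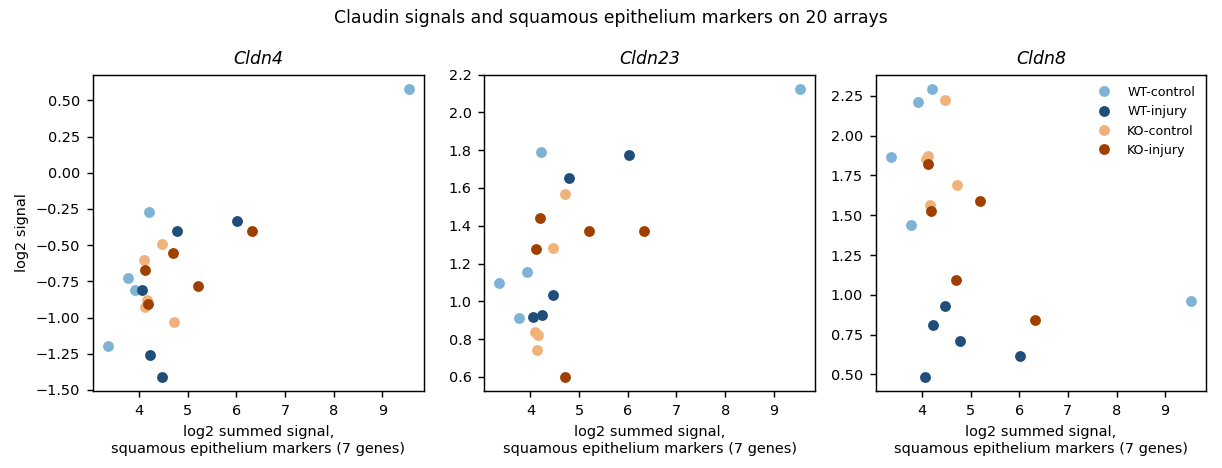
Log2 signal of Cldn4, Cldn23 and Cldn8 (vertical axes) against the log2 summed signal of 7 squamous epithelium markers (horizontal axis) on each of 20 arrays, coloured by group. The array at the far right of each panel is WT-control replicate 3 (9.54), where Cldn4 (0.58) and Cldn23 (2.12) were highest and Cldn8 (0.96) was the lowest of its group.

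Tjp1 and Cldn1 had 2 tested probes each. The brighter Tjp1 probe ranged from -0.88 to 0.27 in uninjured and from -1.08 to -0.10 in injured wild-type tracheas, a difference of -0.13 (SE 0.27, limma adjusted p = 0.82). The second Tjp1 probe, well above background on 15 arrays, gave a difference of the other sign, 0.34 (SE 0.25, limma adjusted p = 0.42). Neither differed by more than the spread between arrays, and the brighter probe was highest on WT-control replicate 3 (0.27): without that array the differences of the brighter and the second Tjp1 probe were both above 0 (0.07 and 0.48, limma adjusted p = 0.89 and 0.23). The brighter probe of Cldn1, the claudin known for the barrier of the skin, differed by -0.29 (SE 0.15, limma adjusted p = 0.23), and the second by -0.18 (SE 0.25, limma adjusted p = 0.70). Without WT-control replicate 3, where the second Cldn1 probe was highest, its difference changed sign (0.09, limma adjusted p = 0.80), and the injured array was higher for it on 3 of 5 slides.

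In Myd88KO tracheas 0 of the 9 genes passed the test after injury, where 0.376% of all probes did. An unadjusted p under 0.05 was found for 1 gene (Cldn10) and for 19.5% of all probes. These results include KO-injury replicate 5, whose proliferation markers lay in the uninjured range. Without that array 0 of the 9 genes passed as well, while the calls among all probes went from 35 higher and 63 lower to 487 and 588. Cldn8 was at 1.85, 1.57, 2.22, 1.87 and 1.69 without injury and at 1.59, 0.84, 1.53, 1.09 and 1.82 with injury. The difference was -0.47 (SE 0.23, 95% confidence interval -0.95 to 0.02, limma adjusted p = 0.28), and injured replicate 5 was the highest of its group. Without that array the difference was -0.58 (limma adjusted p = 0.12). Cldn7 differed by 0.35 (SE 0.28), Ocln by 0.33 (SE 0.25), Tjp1 by 0.18 (SE 0.27), Cldn23 by 0.16 (SE 0.25), Cldn4 by 0.12 (SE 0.27), Cldn3 by -0.10 (SE 0.26) and Cldn1 by -0.30 (SE 0.15), with limma adjusted p values of 0.29 to 0.88. Tjp1 was at -1.32 on KO-injury replicate 5 and at -0.41 to 0.00 on the other injured Myd88KO arrays, and without replicate 5 its difference was 0.41 (limma adjusted p = 0.30). The injured array was lower for Cldn1 on 5 of 5 slides (-0.45 to -0.12). The second Cldn1 probe differed by -0.43 (SE 0.25), and the second Tjp1 probe by -0.26 (SE 0.25), with a sign other than that of the brighter Tjp1 probe.

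**Figure D4:**
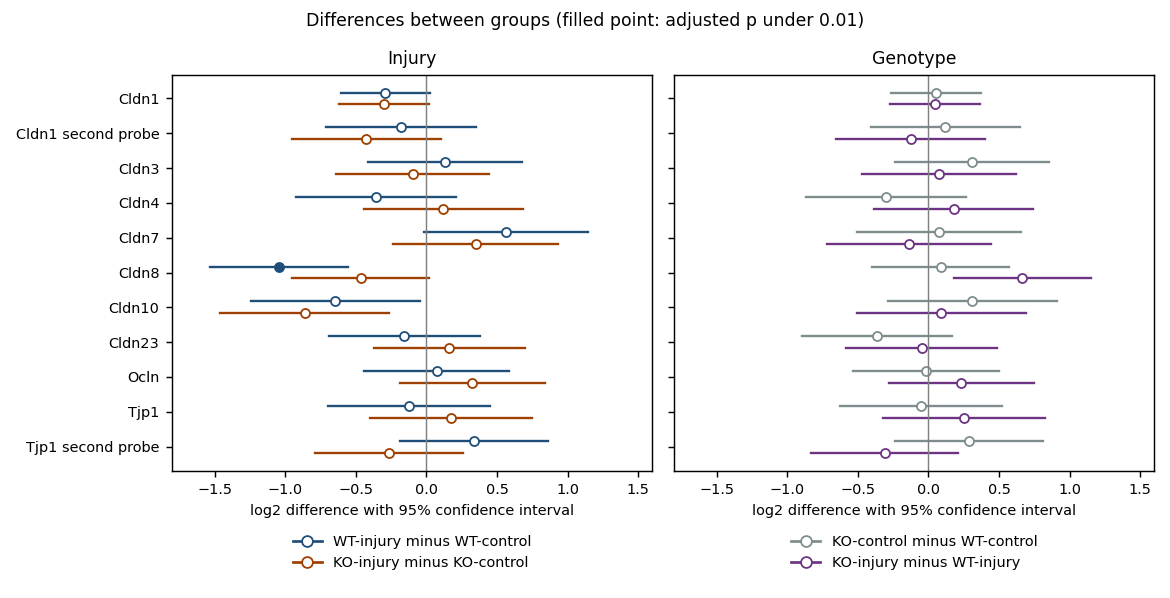
Log2 differences with 95% confidence intervals (horizontal axis) of the 11 tested tight junction probes (vertical axis), for injury in each genotype (left) and for genotype without and with injury (right). The filled point has an adjusted p under 0.01, and that point is Cldn8 after injury in wild-type tracheas (-1.04).

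The next question was whether these genes differed between the genotypes. Among uninjured tracheas 0 of 9 genes passed the test, where 0.384% of all probes did, and 0 had an unadjusted p under 0.05, against 5.59% of all probes. The differences, Myd88KO minus wild-type, ran from -0.37 (Cldn23) to 0.31 (Cldn10 and Cldn3). Cldn23 was lower in the Myd88KO array on 5 of 5 slides (-0.84 to -0.17), with a limma adjusted p of 1.00. Without WT-control replicate 3 the Cldn23 difference was -0.19. The confidence intervals of the 9 genes kept within -0.90 and 0.91, so that a difference of 2-fold or more in either direction lay outside each of them.

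Among injured tracheas 0 of 9 genes passed the test as well, where 0.38% of all probes did, and Cldn8 alone of the 9 had an unadjusted p under 0.05, as had 12.5% of all probes. It was higher in Myd88KO than in wild-type tracheas by 0.66 (SE 0.23, 95% confidence interval 0.18 to 1.15, limma adjusted p = 0.23), on 5 of 5 slides (0.23 to 1.04). The injured groups overlapped, since KO-injury replicate 2 (0.84) lay below WT-injury replicate 1 (0.93). The Cldn8 genotype difference was 0.23 and 0.38 on slides 2 and 4, and 0.66, 1.04 and 1.01 on slides 1, 3 and 5. On KO-injury replicates 2 and 4 the myeloid marker sums were 6.06 and 6.58 and the proliferation marker sums 5.81 and 5.79. On replicates 1, 3 and 5 they were 4.41, 4.51 and 4.33, and 4.39, 4.67 and 2.45, in that order. The myeloid sums of replicates 1, 3 and 5 lay within the range of the uninjured Myd88KO arrays (median 4.53), and those of replicates 2 and 4 lay above it. The proliferation sums of KO-injury replicates 1 to 4 were above all uninjured Myd88KO arrays, and that of replicate 5 was not. Injured wild-type arrays had myeloid sums of 5.84 to 8.33. The part of these sums in the Cldn8 difference was not tested. By mean signal the order of Cldn8 over the groups was KO-control 1.84, WT-control 1.76, KO-injury 1.37 and WT-injury 0.71. Of the neighbours in this order, KO-control and WT-control differed by 0.09 (limma adjusted p = 1.00), and the range of KO-injury overlapped those of both WT-control and WT-injury.

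For Cldn3 the genotype difference among injured tracheas changed with the scan day: it was -0.59 on day 1 and 1.08 on day 2, and the difference between the days was -1.67 (SE 0.28, limma adjusted p = 0.0024). Of all probes 2.83% passed this test. For Cldn7 the values were -0.66 and 0.65 (difference -1.31, limma adjusted p = 0.015), and for Ocln -0.22 and 0.92 (difference -1.15, limma adjusted p = 0.073). Over all arrays the genotype differences of the 3 genes were 0.08, -0.14 and 0.23.

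Whether the injury response differed between the genotypes was tested as an interaction. For 0 of 26063 probes the adjusted p was under 0.01, and of the 9 tight junction genes 0 had an unadjusted p under 0.05, against 10.4% of all probes. The difference between the injury responses of Cldn8, Myd88KO minus wild-type, was 0.58 (SE 0.33, limma adjusted p = 0.54), so that the fall in wild-type tracheas was not shown to differ from the change in Myd88KO tracheas. For the brightest probes of the other 8 genes it lay between -0.23 (Cldn3) and 0.48 (Cldn4). The 2 Tjp1 probes differed in sign: the brighter gave 0.30 (SE 0.39) and the second -0.60 (SE 0.35, limma adjusted p = 0.55). The second Cldn1 probe gave -0.25 (SE 0.36).

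Beyond the 10 genes, other tight junction genes of 3 lists were read in the same fit. Of 13 other claudins on the array 9 were tested, and after injury in wild-type tracheas 2 fell and 1 rose, to be read, as are the counts of the lists that follow, against the 2.03% lower and 3.24% higher of all probes. Cldn22 fell by 2.50 (SE 0.30, limma adjusted p = 0.00011), from 0.44 to 1.35 in the uninjured arrays to -2.24 to -0.61 in the injured ones. Cldn11, the claudin of myelin and of the testis barrier, fell by 1.19 (SE 0.25, limma adjusted p = 0.0048). Cldn9 rose by 0.67 (SE 0.15, limma adjusted p = 0.0058), from a dim signal of -3.19 to -2.95 to one of -2.63 to -2.09. The uninjured and injured wild-type arrays did not overlap for any of these 3 genes; 7.89% of all probes had injured arrays all above uninjured ones. Cldn5, the claudin of endothelium, differed by 0.09 (SE 0.20, limma adjusted p = 0.83).

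Of 12 other strand and immunoglobulin-type junction proteins, all tested, 1 fell and 1 rose in wild-type. Ildr1, an angulin that brings tricellulin to the corners where 3 cells meet, fell by 1.07 (SE 0.21, limma adjusted p = 0.0033). Ildr2, of the same family, rose by 1.13 (SE 0.25, limma adjusted p = 0.0054). The junctional adhesion molecule F11r (-0.16, limma adjusted p = 0.61) did not pass the test. Of 21 other scaffolds and polarity proteins 1 fell, Amotl2, which belongs to the angiomotins (-0.77, SE 0.17, limma adjusted p = 0.0060), and 0 rose. Arhgef2 differed by 0.41 (SE 0.10, limma adjusted p = 0.012) and was called higher with scan day as a term in the fit (0.0048) and without KO-injury replicate 5 (0.0092).

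The medians of these 3 lists were near that of all tested probes (0.00): 0.00 for the other claudins, 0.03 for the strand proteins and -0.18 for the scaffolds, against -0.29 for the 7 tested claudin members and -0.03 for Ocln and Tjp1. Without WT-control replicate 3 the calls of Cldn9 (limma adjusted p = 0.012), Ildr2 (0.011) and Amotl2 (0.016) were lost, and those of Cldn11, Cldn22 and Ildr1 were kept. With KO-injury replicate 5 left out as well, the 3 lost calls came back (0.0097, 0.0066 and 0.0052).

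In Myd88KO tracheas 0 genes of the 3 lists were called after injury with all arrays. Cldn22 differed by -1.54 (SE 0.30, limma adjusted p = 0.011), Cldn11 by -0.83 (SE 0.25, limma adjusted p = 0.077), Amotl2 by -0.65 (SE 0.17, limma adjusted p = 0.043), Cldn19, a claudin of the kidney, by -0.85 (SE 0.20, limma adjusted p = 0.025) and Jam3, an adhesion molecule of endothelium and other tissues, by -0.81 (SE 0.24, limma adjusted p = 0.064). With scan day as a term in the fit, Cldn22 (0.0078) and Jam3 (0.0088) were called lower. That fit called 230 of 26063 probes lower, against 63 without the term. Without KO-injury replicate 5 all 5 were called lower: Cldn22 fell by 1.71 (limma adjusted p = 0.0017), Cldn11 by 1.06 (0.0046), Amotl2 by 0.77 (0.0048), Cldn19 by 0.94 (0.0063) and Jam3 by 1.03 (0.0033). In that fit 2.26% of all probes were called lower. In either genotype comparison and in the interaction, 0 genes of the 3 lists were called.

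**Figure D5:**
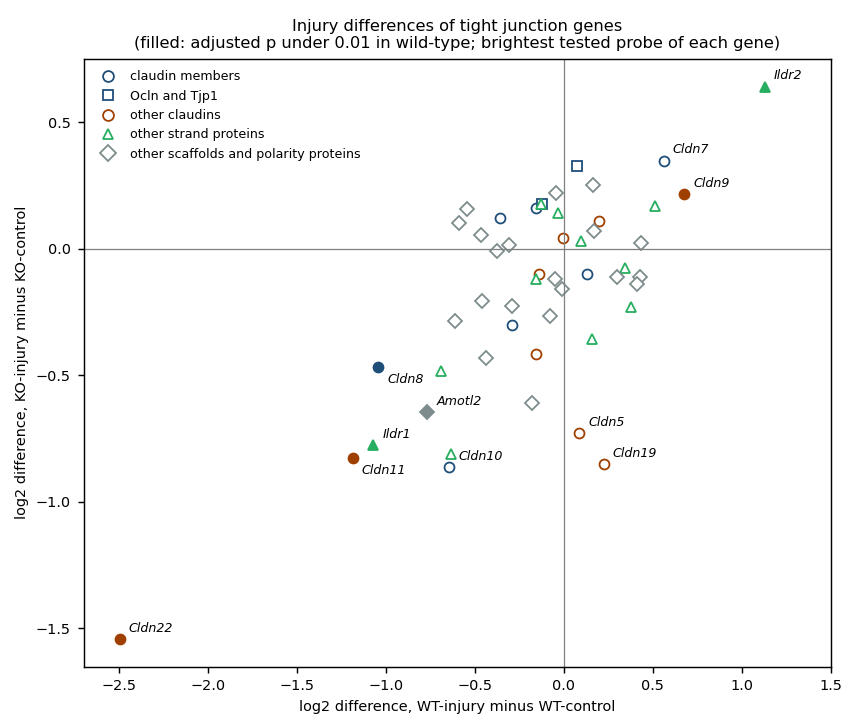
Log2 difference after injury in wild-type (horizontal axis) and in Myd88KO tracheas (vertical axis) of the tested tight junction genes, 1 point per gene, with marker shape and colour by list and filled markers for an adjusted p under 0.01 in wild-type. Cldn22 lies farthest from 0 in both directions (-2.50 and -1.54), and Cldn8 is the filled point among the 9 studied genes.

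Other junction types and the regulators linked to junction genes were read from fixed lists. After injury in wild-type tracheas 0 of 9 adherens junction genes, 0 of 11 desmosome genes, 0 of 12 epithelial transcription factors and 0 of 7 repressors of junction genes were called. Of all probes 5.26% were called, and the counts in this paragraph are to be read against that share. Of the 12 factors 10 were lower, with a median difference of -0.42 against 0.00 for all tested probes. Their summed signal was highest on WT-control replicate 3 (7.02). That of the desmosome genes was highest there as well, at 8.58. The other uninjured wild-type arrays had desmosome sums of 5.75 to 6.43, and the injured ones 6.02 to 7.15. In Myd88KO tracheas 0 of 11 desmosome genes were lower after injury, with a median difference of 0.36 against -0.07 for all tested probes. There 0 of them were called, where 0.376% of all probes were. E-cadherin (Cdh1) differed by -0.11 (SE 0.18) and desmoplakin (Dsp) by -0.15 (SE 0.42). Among the factors, Grhl2, which activates claudin and cadherin genes, differed by -0.60 (SE 0.24, limma adjusted p = 0.11), and among the repressors Snai1 differed by 0.83 (SE 0.35, limma adjusted p = 0.13). Of the 10 epithelial markers, keratin 7 (Krt7) rose by 1.13 (SE 0.22, limma adjusted p = 0.0025). Of 8 club and secretory cell markers 4 fell, Scgb1a1 by 7.91 (SE 0.69, limma adjusted p = 1.0e-05; 3 fell without WT-control replicate 3), and of 9 ciliated cell markers 2 fell, Sntn by 6.05 (SE 0.71, limma adjusted p = 0.00010). Beside these, the intervals of Cldn1, Cldn3, Cldn4, Cldn23, Ocln and Tjp1 kept within 1 log2 unit of 0. Those of Cldn7, Cldn8 and Cldn10 reached 1.14, -1.53 and -1.24. For Cldn3 and Ocln the interval is that of a mean over scan days with differences of opposite sign, and it does not bound either day.

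Genes whose signals ran most alike to each tight junction gene were found by Pearson's r over the 20 arrays, a description in which the arrays share groups, slides and scan days. For Cldn7 these were Krt8 (r = 0.94), Ptprk (0.93) and Dxo (0.92), and for Cldn3 they were 3010003L21Rik (0.90), Ino80b (0.89) and Sigirr (0.89). Cldn8 ran with H2-Q1 (0.93), Dcaf12l1 (0.91) and Slc25a16 (0.91), and Cldn10 with Aass (0.92), Foxa3 (0.91) and a probe that has no gene name here. Cldn4 ran with Mpzl2 (0.94), Plekhg6 (0.86) and Duox1 (0.84), and Cldn23 with Kcnk7 (0.86), Best2 (0.85) and Adh6a (0.84). Ocln ran with Ovol2 (0.87), Rab40c (0.86) and Med25 (0.86), Tjp1 with Wasl (0.91), Rcor1 (0.85) and Gpatch2 (0.82), and Cldn1 with Gpat2 (0.78), Rgs2 (0.75) and Nsun6 (0.74).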

How the data were processed

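Scanner files of 20 one-colour Agilent arrays were used. The deposited intensity was the processed signal of Agilent Feature Extraction 9.5.1.1, background-subtracted by the authors' software and not scaled between arrays; the table of values for the series repeats this intensity in rounded form. Control spots and outlier spots were left out, spots of a probe averaged as log2, and the 75th percentile of each array subtracted. Probes well above background on at least 10 of 20 arrays (26063) were fitted in limma 3.58.1 (R 4.3.3) with all arrays, with Benjamini-Hochberg adjustment of p values per comparison (threshold 0.01). The number of arrays, 5 per group, limits the precision. A simulated data set was used to check the code. Named genes were all members, called genes of fixed lists (up to 4 each) and 1 best known member of a list, Myd88, and for each member the 3 genes of highest r; the brightest tested probe stood for a gene, except where both probes are given. Members and lists were chosen with earlier results of these data known. Symbols were updated through a RefSeq table (GRCm38.p6, names only), through the accession (22951 probes), the current name (6659) or a former one (3109). Replicates are tissues the labels number 1 to 5 in each group; the study's methods call them biological replicates and tie 4 samples of each uninjured group to separate mice. The same-number arrays deviated together (correlation over 0.1) in 16 of 20 pairs, and in all 5 pairs only between the uninjured groups. Alternatives were other scalings, background corrections, filters, blocks, tests and subsets of arrays.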

Additional observations from a re-analysis of the deposited data

Results flagged for a closer look

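Of 44 sets of 5 arrays (11 probes in 4 groups), 2 held an array farther from the rest than Dixon's 95% limit allows, and chance alone gives about 1 in 20. The second Cldn1 probe was at -3.36 on WT-control replicate 3, with the next array of the group at -4.46. This probe was well above background on 1 of the 5 arrays of that group, replicate 3, and this is the one with the squamous markers. Cldn23 was at 0.60 on KO-injury replicate 4, and the next lowest array of the group was at 1.28.

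The genotype difference of Cldn3 among injured tracheas differed between the 2 scan days, by -1.67 (day 1 minus day 2, limma adjusted p = 0.0024). Whether the scan, the slide or the mice differed was not tested.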

How the results depend on the processing

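Of the 55 probe and comparison pairs, values under 35 alternatives gave 1442 results, of which 1428 kept their side of the threshold, 12 lost a call, 2 gained one and 0 called differences changed direction. Most of these results are of pairs that were not called to begin with. All 12 losses were of the only call, Cldn8 after injury in wild-type. It was kept in 12 of 24 alternatives with adjusted p values. Differences that were not called changed sign 83 times. For injury in wild-type, the count of called tight junction probes went from 1 (Cldn8) to 0 with no filter on dim probes (limma adjusted p = 0.0104 in place of 0.0062), with only the groups of the comparison fitted (0.017) and with the methods' one-way test after adjustment (0.039), and was 0 to 1 when single arrays were left out. The cause was not tested. With the arrays of scan day 1 the count was also 1, but the probe was Cldn7 and Cldn8 was not called (-0.82, limma adjusted p = 0.059). Between the injured genotypes the count went from 0 to 1 (Cldn8, unadjusted p = 0.0090) with the methods' one-way test before adjustment, and it was 0 to 0 with single arrays left out. The other 3 counts were 0 under every alternative run, and the methods' test and the fit of 2 groups alone give no value for the interaction. With the replicate block, Cldn8 after injury in wild-type stayed at -1.04 (limma adjusted p = 0.0060), and the block changed no other call of a tight junction probe. Fits without the 2 arrays that stand apart, within a scan day and of the difference between scan days were added after seeing the data. Other scalings moved the median of all probes by less than 0.1. Signal over background limits the second probes of Cldn1 and Tjp1, which were well above background on 11 and 15 arrays.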
